A study of Rattus rattus with 18 samples.

Results

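The genes described here are the predicted targets of miR-211 in the hypothalamic arcuate nucleus (ARC) of female Wistar rats. The study named 85 such targets, which were genes of its high-fat diet gene list that also carried a predicted miR-211 site in miRDB and TargetScan. All 85 could be paired with 1 Ensembl gene each, and 5 were left out by name, so that 80 of the 32883 genes in the count files are described. The list gave 44 of them as higher and 36 as lower in high-fat sedentary (HFS) than in chow sedentary (CS) rats. Because most of the CS and HFS libraries chose the list, the values of the targets in the diet libraries are given as a description without any test. The comparison of miR-211 mimic with miR-211 inhibitor, which played no part in the study's choice of the 85, is the tested one. The targets left out by name include a gene that the paper reports as lower in the mimic. Counts and medians over the 80 are therefore not those of the full list and not wholly independent of that comparison.

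MicroRNAs are short RNAs that guide Argonaute proteins to messenger RNAs, mostly through pairing of their seed with sites in the 3′ untranslated region, and thereby lower the stability and translation of the message. miR-211 is encoded in an intron of *Trpm1* and shares its seed with miR-204. A predicted target is a message with a matching site, which need not be bound in a given tissue, and a message can also move for reasons that do not involve the site. The ARC holds neurons that drive or restrain feeding, together with the tanycytes and other glia lining the floor of the third ventricle.

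The 18 libraries fall into 5 groups. CS rats (3 libraries) received chow and HFS rats (3 libraries) a 60% high-fat diet from weaning at postnatal day 21, and both spent the last 4 weeks, from day 90, in cages without a wheel. High-fat running (HFR) rats (4 libraries) received the same high-fat diet and had a running wheel during those weeks. In the miR-211 experiment, chow-fed rats that had arrived at day 60 and been fasted overnight received MiRIDIAN hsa-miR-211-mimic (4 libraries) or the MiRIDIAN hsa-miR-211-hairpin inhibitor (4 libraries) through a cannula in the third ventricle, and the ARC was taken 6 h later. Chow was given back at the infusion, so these rats could eat until the ARC was taken. The paper reports that the mimic group ate less than the inhibitor group at the later weighings, but not at the first. The part of this difference in food intake in the comparison of mimic with inhibitor was not tested. Neither agent is restricted to a cell type. The mimic and the inhibitor are set against each other and not against an untreated group. RNA came from a punch of tissue, so fewer cells of a type and less RNA per cell cannot be told apart. The diet experiment was run in repeated rounds that the labels do not assign, the labels number the libraries as replicates without naming the rat of each, and the p-values measure the spread between these libraries only.

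The diet libraries held between 4680736 and 7494207 counts on genes each, and those with mimic or inhibitor between 1275263 and 6615927. Levels are CPM, the counts of a gene scaled to a fixed total per library with TMM factors, and the libraries of both experiments were scaled separately and extracted with different reagents, so levels are not compared between experiments. Of the 10 diet libraries, 8 held counts in a constant ratio to a column of the table on which the list was chosen, while CS 2 and HFS 2 matched no column. Whether those 2 libraries are from animals of that table is not given in the sources used here, and each diet value over 10 libraries includes them. CS 2 also stood apart in its markers: 9 vascular and meningeal genes summed to 689.7 CPM, against 231.6 in CS 1 and 200.2 in CS 3, and 8 neuronal genes to 1886.0 CPM, against 2836.4 and 2830.7. None of the 4 markers of ARC identity was at 0 in all libraries of a group, but their sum varied widely within each experiment. It ranged from 250.5 CPM in CS 3 to 1245.5 CPM in HFR 3, and from 80.4 CPM in mimic 3 to 1149.3 CPM in mimic 4.

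Between mimic and inhibitor, no target described here passed the test. Of the 67 targets with enough counts for the fit, edgeR's quasi-likelihood test called 0 at an adjusted p under 0.05, where it called 0.447% of the 9625 genes, 0.436% lower and 0.0104% higher in the mimic. At an unadjusted p under 0.05 there were 8 targets on the lower side (all genes 6.35%) and 7 on the higher side (all genes 3.55%), or 22.4% of the 67 together, against 9.9% of all genes. Of the other 289 genes of the diet list that could be fitted, 32 were on the lower and 11 on the higher side, or 14.9% together. DESeq2, run as an alternative, called *Cebpd* and *Zyx* lower and *Metrn* higher, where it called 1.7% of 9621 genes lower and 0.125% higher. All 3 were listed as higher in HFS.

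The targets described here did not lean to the lower side as a list. Their median log2 fold change of mimic over inhibitor was 0.03, beside 0.01 over all genes, and 30 of 67 were below 0 (44.8%, all genes 48.4%). Split by the listed direction, the 39 targets listed as higher in HFS had a median of -0.10 with 24 below 0, and the 28 listed as lower had a median of 0.16 with 22 above 0. Leaving out single libraries gave -0.12 to -0.05 for the former, lowest in size without mimic 1, and 0.13 to 0.26 for the latter, highest without mimic 2 or inhibitor 4. The other genes of the same diet list, which are not among the predicted targets, leaned the same way: the median was -0.13 over 186 genes listed as higher, with 121 below 0, and 0.11 over 103 genes listed as lower, with 82 above 0. Non-overlapping groups were seen for 5 targets on the lower side, or 7.46% (all genes 3.68%), and for 2 on the higher side, or 2.99% (all genes 2.22%). For the other genes of the diet list these shares were 6.57% and 2.42%.

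**Figure D1:**
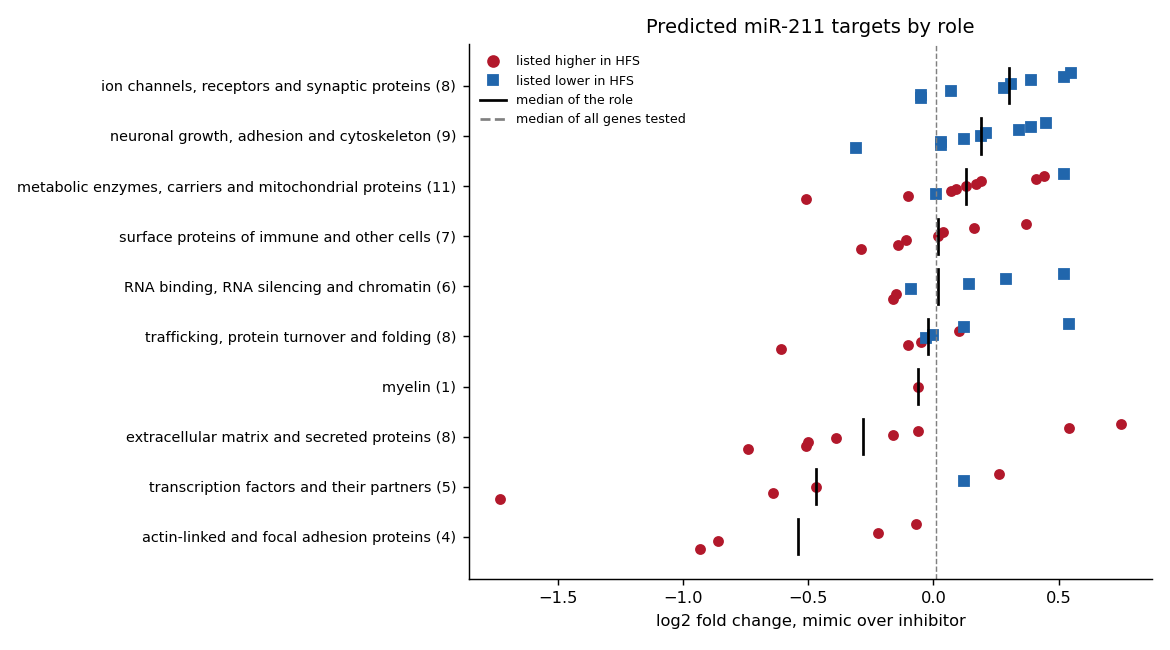
Log2 fold change of mimic over inhibitor (x axis) for the 67 targets that passed the filter on low counts, grouped by role (y axis, with the number of genes), as circles for targets listed as higher in HFS and squares for those listed as lower. The actin-linked genes, all listed as higher in HFS, had a median of -0.54 and the ion channel, receptor and synaptic genes a median of 0.30, while the dashed line marks the median of all genes at 0.01.

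Among the 7 transcription factors and their partners, *Cebpd* showed the largest difference of any target. *Cebpd* encodes C/EBPδ, a factor that is induced early in the acute inflammatory response. It was at 180.2, 226.8, 94.8 and 245.3 CPM in mimic 1 to 4 and at 415.2, 884.1, 450.0 and 714.7 CPM in inhibitor 1 to 4. Every mimic library was below every inhibitor library. The means were 186.8 ± 67.1 and 616.0 ± 223.2 CPM (SD, n = 4), a ratio of 0.303. On the log2 scale the fold change was -1.73 (SE 0.36), with an adjusted p of 0.116 by edgeR and 1.97e-06 by DESeq2. Leaving out single libraries gave edgeR adjusted p-values of up to 0.277.

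In the diet experiment *Cebpd* was at 15.9, 18 and 11.8 CPM in CS, at 35.4, 23.0 and 24.0 CPM in HFS, and at 8.75, 27.2, 19.6 and 15.5 CPM in HFR. HFS and CS did not overlap, which is no finding for a gene chosen on that contrast, and the HFR libraries spread across both groups.

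*Rela* encodes the p65 subunit of NF-kB, the transcription factor complex through which inflammatory signals reach many genes. Its values were 56.1, 47.1, 41.9 and 45.9 CPM in the mimic and 61.8, 104.9, 58.1 and 73.7 CPM in the inhibitor libraries, again without overlap. This was a log2 fold change of -0.64 (SE 0.19), with an adjusted p of 0.231 by edgeR and 0.131 by DESeq2. Among CS libraries *Rela* was at 40.5, 61.0 and 42.4 CPM, among HFS at 56.1, 39.9 and 59.4 CPM, and among HFR at 41.8, 44.7, 39.1 and 48.6 CPM. These 3 groups overlapped, with CS 2 the highest library of all and HFS 2 the lowest of HFS.

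A list of 11 genes that NF-kB and acute stimuli induce, which was drawn from genes the study picked on these samples, was also lower in the mimic libraries. The 11 genes summed to 378.5 to 547.4 CPM in the mimic and 943.0 to 2001.8 CPM in the inhibitor libraries. All 11 had fold changes below 0. For genes picked in part on this same comparison that direction is no finding, so no calls are given for them. Among the 11, *Nfkbiz* was at a log2 of -1.80 (SE 0.31) and *Zfp36*, a destabilizer of cytokine messages, at -1.86 (SE 0.26). *Nfkbia*, the inhibitor that holds NF-kB in the cytoplasm, was at -1.77 (SE 0.30).

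Markers of neutrophils and monocytes, 9 genes, summed to 210.9 to 334.0 CPM in the mimic and 320.6 to 1961.6 CPM in the inhibitor libraries, where inhibitor 1 was the lowest at 320.6 and inhibitor 2 the highest. None of the 9 was at 0 in all libraries of either group, *S100a8* averaging 3.30 CPM in the mimic and 41.0 CPM in the inhibitor. The 5 that could be tested were all below 0 and none was called. The 7 microglia and macrophage markers summed to 353.5 to 618.3 CPM and 505.3 to 1057.4 CPM. The part of these cells in the values of *Cebpd*, *Rela* and the actin-linked targets was not tested. These marker lists are partial and were drawn from genes that the study picked on these samples.

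*Meis1*, a homeobox factor of neural and other progenitors, was listed as lower in HFS. It was at 11, 9.24 and 8.14 CPM in CS, at 5.68, 7.50 and 3.83 CPM in HFS, and at 6.57, 10.1, 7.87 and 6.92 CPM in HFR. CS and HFS did not overlap and HFR lay across both. The miR-211 libraries held 3 to 26 counts of *Meis1* each, too few for the fit, with 4.43, 5.66, 8.89 and 2.34 CPM in the mimic and 3.86, 1.44, 5.06 and 3.85 CPM in the inhibitor. Of the remaining factors, *Lmcd1* and *Pbxip1* had log2 fold changes of -0.47 and 0.26 between mimic and inhibitor, and *Atoh8* had too few counts.

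The 5 actin-linked and focal adhesion genes were all listed as higher in HFS, and the 4 that could be fitted were all below 0 between mimic and inhibitor, at a median of -0.54. *Zyx* encodes zyxin, which joins focal adhesions to actin stress fibres. It was at 36.6, 42.4, 50.4 and 57.6 CPM in the mimic and at 59.2, 120.2, 73.8 and 96.9 CPM in the inhibitor libraries. The groups did not overlap, but mimic 4 and inhibitor 1 lay close together. Its log2 fold change came to -0.93 (SE 0.22), with an adjusted p of 0.118 by edgeR and 0.00975 by DESeq2. Without inhibitor 1 edgeR called *Zyx*, at a log2 of -1.07 and an adjusted p of 0.0306, and leaving out any other library gave adjusted p-values up to 0.344.

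*Zyx* differed little between the diet groups, at 43.3, 53.9 and 26.6 CPM in CS, 58.1, 45.3 and 48.6 CPM in HFS, and 47.3, 46.0, 46.6 and 43.1 CPM in HFR. CS 3 alone was far below the rest. *Msn*, encoding moesin, which links the membrane to actin, had a log2 fold change of -0.86 (SE 0.30) between mimic and inhibitor, with 25 and 22.4 CPM in mimic 2 and 3 but 43.1 and 55.3 CPM in mimic 1 and 4, against 45.5 to 92.7 CPM in the inhibitor. *Pdlim4* was at -0.22 and *Myl6*, a myosin light chain, at -0.07, and *Eps8l2* had too few counts.

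Of the 8 extracellular matrix and secreted genes, all listed as higher in HFS, 6 were below 0 between mimic and inhibitor and 2 were above, at a median of -0.28. The highest was *Metrn*, which encodes meteorin, a secreted protein of glial differentiation and axon growth. *Metrn* was at 82.7, 133.0, 154.5 and 98.9 CPM in the mimic and at 83.7, 67.0, 68.8 and 61.8 CPM in the inhibitor libraries. Only mimic 1 and inhibitor 1, at nearly the same level, kept the groups from separating. The log2 fold change was 0.75 (SE 0.19), with an adjusted p of 0.153 by edgeR and 0.0281 by DESeq2. Its diet levels were 71.9, 124.6 and 69.8 CPM in CS, 121.1, 92.7 and 83.9 CPM in HFS, and 64.7, 94.1, 90.4 and 80.3 CPM in HFR. CS 2 was the highest of these 10 libraries, so that the fold change of HFS over CS was 0.16 on the log2 scale, and 0.54 over the 8 libraries of the study's table.

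*Klk6*, a secreted protease made by oligodendrocytes, was lower in every mimic library, by a narrow margin. It was at 31.0, 54.2, 49.5 and 42.8 CPM in the mimic and at 70.8, 54.6, 59.2 and 67.3 CPM in the inhibitor libraries. The log2 fold change was -0.51 (SE 0.18), with an adjusted p of 0.333 by edgeR. The diet groups were wider apart, with 66.8, 152.3 and 71.7 CPM in CS, 245.1, 174.9 and 174.3 CPM in HFS, and 145.4, 96.7, 127.4 and 170.4 CPM in HFR. HFS lay above all libraries of both other groups. *Klk6* is also among the 6 oligodendrocyte markers. Their sum was 8666.5 to 13619.9 CPM in CS, 13541.2 to 20479.3 CPM in HFS and 11387.5 to 15938.4 CPM in HFR. Most of that sum was *Mbp*, itself a target, with 7474.3 of 8666.5 CPM in CS 1 and 17667.1 of 20479.3 CPM in HFS 1. The part of the difference between these sums in *Klk6* was not tested.

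*Efemp2* and *Fbln1* belong to the fibulin family of elastic fibre and basement membrane proteins. *Fbln1* was at 19.2, 22.6, 15.2 and 16.4 CPM in the mimic and at 24.5, 47.9, 21.7 and 28.7 CPM in the inhibitor libraries, a log2 fold change of -0.74 (SE 0.26, adjusted p = 0.335 by edgeR). Its diet levels were 37.9, 116.6 and 46.7 CPM in CS, 90.5, 87.3 and 111.1 CPM in HFS, and 23.3, 49.5, 41.7 and 89.4 CPM in HFR. CS 2 lay above all HFS libraries, and HFR 4 was the only runner near the HFS level. *Efemp2* was likewise highest in CS 2 among the CS libraries, with 53.2, 95.5 and 47.5 CPM in CS, 95.5, 58.6 and 74.9 CPM in HFS, and 36.4, 50.4, 60.6 and 61.8 CPM in HFR. In the miR-211 experiment *Efemp2* was at 37.2, 25, 15.7 and 37.4 CPM with mimic and 32.2, 48.8, 42.0 and 39.1 CPM with inhibitor, a log2 fold change of -0.50 (SE 0.25) with overlapping groups. The fold change of *Fbln1* was -0.46 without inhibitor 2, and that of *Efemp2* was -0.29 without mimic 3.

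Vascular and meningeal markers, which include matrix genes, summed to 433.2 to 567.2 CPM in HFS and to 209.9, 298.0, 302.3 and 513.0 CPM in HFR 1 to 4. HFR 4 was thus the highest runner both for these markers and for *Fbln1*. The part of vascular and meningeal cells in the fibulin levels was not tested.

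*Dkk3*, a secreted protein of the Dickkopf family, was at 11.8, 19.8, 19.1 and 14.8 CPM in the mimic and at 11.6, 9.10, 12.1 and 11.7 CPM in the inhibitor libraries. Its log2 fold change was 0.54 (SE 0.23, adjusted p = 0.471 by edgeR), and mimic 1 lay within the inhibitor group. The diet libraries had 73.7, 166.9 and 98.3 CPM in CS, 147.2, 136.3 and 152.8 CPM in HFS, and 73.8, 131.8, 234.4 and 107.2 CPM in HFR. HFR spanned a wider range than CS and HFS together. The collagen chaperone gene *Serpinh1* was at -0.16, *Mxra8* at -0.06 and *Tsku*, encoding the proteoglycan tsukushi, at -0.39 between mimic and inhibitor.

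**Figure D2:**
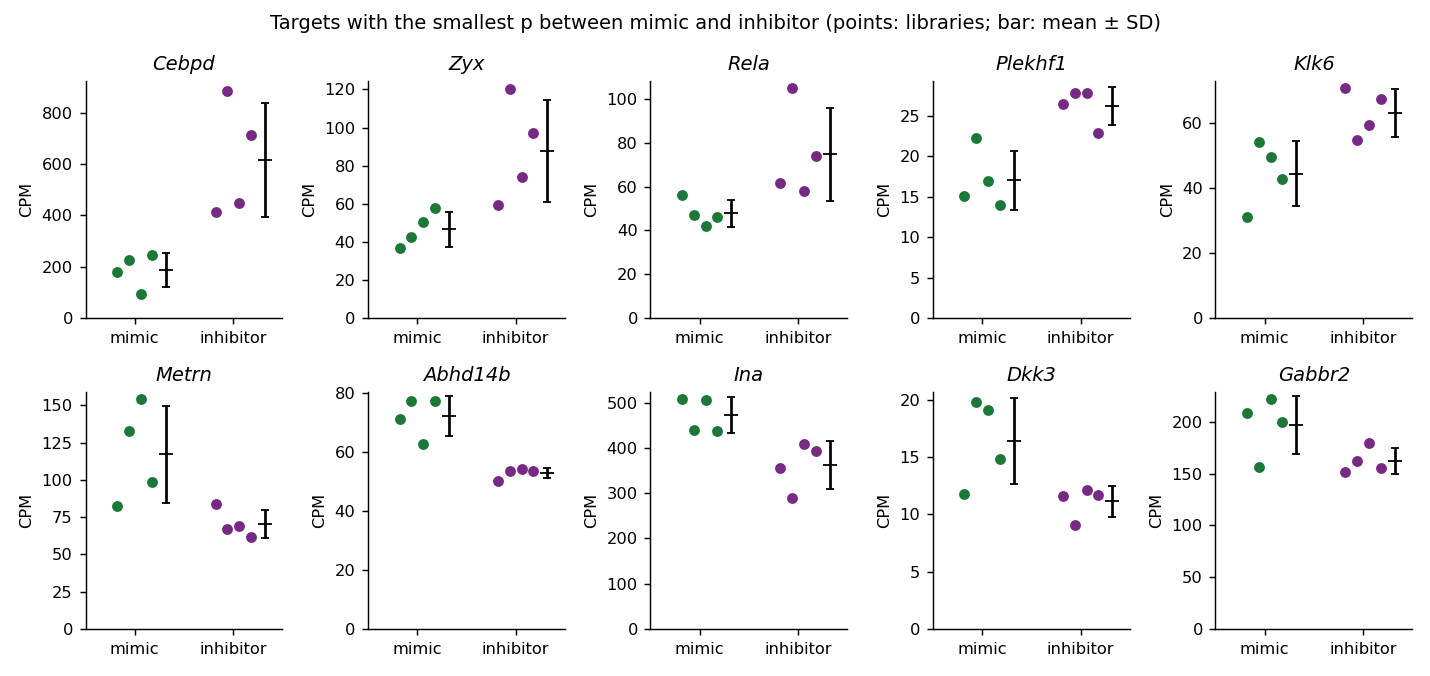
CPM (y axis) in the 4 mimic and 4 inhibitor libraries for the 5 targets with the smallest p on the lower side (top) and on the higher side (bottom), with 1 point per library and the mean with its SD beside them. The groups do not overlap for the top genes or for *Abhd14b* and *Ina*, and they overlap for *Metrn*, *Dkk3* and *Gabbr2*.

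The 12 genes of neuronal growth, adhesion and cytoskeleton were all listed as lower in HFS, and 8 of the 9 that could be fitted were above 0 between mimic and inhibitor, at a median of 0.19. *Ina* encodes alpha-internexin, a neuronal intermediate filament. It was at 508.6, 438.5, 505.9 and 436.8 CPM in the mimic and at 355.3, 290.2, 408.6 and 391.9 CPM in the inhibitor libraries, without overlap. This was a log2 fold change of 0.39 (SE 0.12), with an adjusted p of 0.247 by edgeR. The diet levels of *Ina* were 317.7, 206.6 and 363.8 CPM in CS, 242.9, 254.3 and 292.6 CPM in HFS, and 397.7, 302.6, 256.8 and 371.6 CPM in HFR. CS 2 was the lowest library for *Ina*, as it was for the summed neuronal markers.

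*Dcx* encodes doublecortin, a microtubule protein of migrating and immature neurons. Its diet levels were 7.65, 5.51 and 10.9 CPM in CS, 3.44, 6.06 and 1.60 CPM in HFS, and 5.37, 4.96, 5.53 and 4.61 CPM in HFR. CS and HFS overlapped through CS 2 and HFS 2 only, and the 4 runners lay close together between the group means. The mimic libraries held 23, 9, 20 and 6 counts of *Dcx* and the inhibitor libraries 2, 1, 10 and 18, or 6.79, 4.24, 8.47 and 4.67 CPM against 1.29, 0.479, 5.06 and 2.66 CPM. *Dcx* did not pass the filter on low counts, so this difference has no test here, and inhibitor 3 lay within the mimic group.

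*Cdk14*, a cyclin-dependent kinase that acts at the membrane in Wnt signalling, was at 30.2, 17.1 and 44.3 CPM in CS, 19.6, 16.8 and 14.2 CPM in HFS, and 28.8, 18.6, 24.3 and 21.3 CPM in HFR. CS 2 lay among the HFS libraries. In the miR-211 experiment its levels were 37.8, 32.1, 36.8 and 24.1 CPM with mimic and 34.1, 23.5, 27.8 and 21.6 CPM with inhibitor, a log2 fold change of 0.34 (SE 0.20, adjusted p = 0.637 by edgeR). *Epha5*, an ephrin receptor of axon guidance, was at 0.45 and *Pak3*, a kinase of dendritic spines, at 0.21. *Cntn1*, *Lmtk2*, *Map1b* and *Pcdh9* lay between 0.03 and 0.19, and *Nckap1*, a subunit of the WAVE actin regulator with a mean of 4.35 CPM, was the only one below 0, at -0.31 (SE 0.39). *Fry* and *Sema5a* had too few counts.

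The ion channels, receptors and synaptic proteins numbered 9, and 8 of them were listed as lower in HFS. Those 8 could be fitted, and 6 were above 0 between mimic and inhibitor. *Gabbr2* encodes a subunit of the metabotropic GABA-B receptor. It was at 208.8, 156.5, 221.9 and 200.1 CPM in the mimic and at 151.3, 161.9, 179.5 and 155.3 CPM in the inhibitor libraries, where mimic 2 lay within the inhibitor group. Its log2 fold change came to 0.28 (SE 0.12, adjusted p = 0.475 by edgeR). Its diet levels were 90, 64.2 and 126.5 CPM in CS, 64.7, 70.8 and 73.7 CPM in HFS, and 90.7, 106.6, 77.4 and 90.6 CPM in HFR. All 4 runners were above all HFS libraries, and CS 2 was the lowest of the 10.

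*Kcnc1* and *Kcnc2* encode the fast voltage-gated potassium channels Kv3.1 and Kv3.2 of rapidly firing neurons. *Kcnc1* was at 122.8, 81.9 and 155.2 CPM in CS, 77.9, 120.5 and 102.9 CPM in HFS, and 177.3, 163.6, 90 and 119.6 CPM in HFR. *Kcnc2* was at 25.8, 16.7 and 26.3 CPM in CS, 16.3, 15.0 and 16.3 CPM in HFS, and 23.3, 18.4, 8.08 and 17.2 CPM in HFR. The HFS libraries of *Kcnc2* lay just under the lowest CS library, and for *Kcnc1* HFS 1 lay under CS while HFS 2 and HFS 3 lay among CS. Between mimic and inhibitor *Kcnc1* had a log2 fold change of 0.31 (SE 0.18), from 111.6, 93.8, 146.9 and 81.0 CPM and 107.5, 79.5, 84.9 and 80.8 CPM. *Kcnc2* was at 17.7, 8.96, 44.5 and 15.6 CPM with mimic and 21.2, 5.75, 12.6 and 20.6 CPM with inhibitor. Its fold change of 0.52 (SE 0.53) rested on mimic 3, without which it was -0.11, and without that library the fold change of *Kcnc1* was 0.13.

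*Dnajc6* encodes auxilin, which uncoats clathrin-coated vesicles at synapses. It was at 8.77, 5.69 and 16.7 CPM in CS, 6.88, 6.54 and 5.75 CPM in HFS, and 8.36, 4.96, 3.83 and 5.56 CPM in HFR. The CS mean was carried by CS 3, and the mean of the runners, 5.68 CPM, lay farther from CS than that of HFS, 6.39 CPM. In the miR-211 experiment it was at 25.4, 7.54, 8.04 and 26.5 CPM with mimic and 28.3, 15.3, 17.2 and 10.9 CPM with inhibitor, a log2 fold change of -0.05 (SE 0.46). *Syt13*, a synaptotagmin, was at 0.39 (SE 0.18), *Cacnb4*, a calcium channel subunit, at 0.55 (SE 0.41), *Gabra4*, a GABA-A receptor subunit, at -0.05 and *Vsnl1*, a neuronal calcium sensor, at 0.07. *Aplnr*, the apelin receptor and the only one of the group listed as higher in HFS, had too few counts.

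The 8 neuronal markers summed to 2645.1 to 3953.5 CPM in the mimic and 2027.7 to 3179.5 CPM in the inhibitor libraries, and 0 of the 8 had a fold change below 0, at a median of 0.15, while none was called by edgeR. That median lay near the median of 0.19 of the targets of neuronal growth, adhesion and cytoskeleton. The share of neurons in the punches was not tested as a part of either value.

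Of the 9 genes of RNA binding, RNA silencing and chromatin, 7 were listed as lower in HFS. *Ago3* encodes an Argonaute, the protein family that carries microRNAs. It was near the limit of detection, with 15, 1 and 18 counts in CS, 4, 14 and 3 in HFS, 8, 14, 0 and 5 in HFR, 4, 2, 0 and 0 in the mimic and 2, 2, 4 and 5 in the inhibitor libraries. A count of 0 allows up to 1.24 CPM in mimic 3 and 2.35 CPM in mimic 4, so no difference was detectable at this depth. *Ptbp2*, a neuronal splicing regulator, held 1 to 19 counts per library and passed the filter in neither experiment.

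*Elavl1* and *Elavl2* encode the RNA-binding proteins HuR and HuB, the former made in most cells and the latter in neurons, and the list gave them opposite directions. *Elavl1*, listed as higher in HFS, was at 40.5, 78.6 and 30.0 CPM in CS, 66.2, 68.3 and 51.6 CPM in HFS, and 45.8, 43.0, 37.7 and 57.6 CPM in HFR. *Elavl2*, listed as lower, was at 29.9, 10.1 and 26.1 CPM in CS, 14.3, 21.5 and 19.5 CPM in HFS, and 22.5, 19.3, 4.47 and 17.6 CPM in HFR. CS 2 was the highest library for *Elavl1* and, after HFR 3, the lowest for *Elavl2*. With mimic *Elavl1* was at 50.5, 53.3, 37.7 and 56.8 CPM and with inhibitor at 65.7, 48.8, 42.5 and 63.2 CPM, a log2 fold change of -0.16 (SE 0.18). *Elavl2* was at 21.9, 10.8, 23.3 and 21.8 CPM and at 13.5, 1.92, 17.2 and 19.5 CPM, a log2 fold change of 0.52 (SE 0.49), with replicate 2 the lowest in both groups. Without inhibitor 2 the fold change of *Elavl2* was 0.18 and without inhibitor 4 it was 0.86, and that of *Elavl1* was -0.05 without mimic 3.

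*Chd5*, a neuronal chromatin remodeller, was at 36.4, 27.9 and 77.7 CPM in CS, 22.2, 34.3 and 28.0 CPM in HFS, and 48.3, 52.6, 27.0 and 37.4 CPM in HFR. CS 3 stood far above the rest. In the miR-211 libraries it held 3 to 23 counts each and did not pass the filter, at 3.54, 3.30, 3.81 and 3.11 CPM with mimic and 2.57, 4.79, 1.52 and 3.4 CPM with inhibitor. *Gnl3l*, a nucleolar GTPase, had a fold change of 0.29 (SE 0.13), and *Cir1*, *Fam120b* and *Ppil1* lay between -0.15 and 0.14.

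The 12 metabolic enzymes, carriers and mitochondrial proteins were mostly listed as higher in HFS (10 of 12), and 9 of the 11 that could be fitted were above 0 between mimic and inhibitor, at a median of 0.13. *Abhd14b* encodes a lysine deacetylase of the alpha/beta hydrolase family. It was at 71.2, 77.3, 62.7 and 77.1 CPM in the mimic and at 50.2, 53.6, 54.1 and 53.4 CPM in the inhibitor libraries. The groups did not overlap, and the inhibitor libraries lay close together. The log2 fold change was 0.44 (SE 0.12), with an adjusted p of 0.175 by edgeR and 0.135 by DESeq2. The diet groups overlapped, with 78.0, 124.8 and 69.2 CPM in CS, 108.2, 81.4 and 109.1 CPM in HFS, and 65.5, 77.6, 102.1 and 94.3 CPM in HFR, where CS 2 was again the highest and HFS 2 the lowest of its group.

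*Cox5a* and *Cox4i2* encode subunits of mitochondrial cytochrome c oxidase, and the list gave them opposite directions. *Cox5a* was at 117.4, 95.3 and 221.2 CPM in CS, 100.4, 99.4 and 106.7 CPM in HFS, and 119.8, 130.7, 145.9 and 115.8 CPM in HFR. CS 3 carried the CS mean, and every runner was above every HFS library. Between mimic and inhibitor *Cox5a* was among the most even of the targets, at 625.5, 629.0, 686.3 and 565.3 CPM against 630.2, 614.9, 657.3 and 582.4 CPM, a log2 fold change of 0.01 (SE 0.09). *Cox4i2* was at 2.80, 4.09 and 1.71 CPM in CS, 8.60, 5.90 and 6.55 CPM in HFS, and 3.58, 5.33, 4.04 and 3.66 CPM in HFR. HFS lay above both other groups without overlap, from 37 to 50 counts per HFS library against 8 to 29 in the others. In the miR-211 libraries *Cox4i2* held 6 to 17 counts each and did not pass the filter, at 3.84, 7.54, 6.35 and 4.67 CPM with mimic and 4.51, 8.14, 4.55 and 2.37 CPM with inhibitor.

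The other metabolic genes named here lay between -0.51 and 0.52 on the log2 scale between mimic and inhibitor. At the ends were *Slc12a4*, a potassium-chloride cotransporter, at -0.51 (SE 0.19), and *Ahcyl1*, an IP3 receptor regulator, at 0.52 (SE 0.36), where inhibitor 2 was at 49.8 CPM and the other inhibitor libraries at 167.2 to 179.0 CPM. *Akr1b1* and *Akr7a2*, aldo-keto reductases, were at 0.07 and 0.13, *Cyb5r1* at 0.19, *Efhd1* at 0.41, *Slc35a2*, the UDP-galactose transporter, at 0.09 and *Uap1l1* at 0.17.

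The 7 surface proteins, all listed as higher in HFS, ranged from -0.29 to 0.37 between mimic and inhibitor, with 3 below 0 and a median of 0.02. *Vsir*, an immune checkpoint receptor, was at 0.02 and the tetraspanin genes *Cd82* and *Tspan31* were at -0.14 and 0.04. *Tm2d2* and *Tmem117* were at -0.11 and 0.16, and *RT1-M3-1*, a class I histocompatibility gene whose reads may be shared with near-identical copies, was at -0.29. *Cd164*, encoding a sialomucin, was at 0.37 (SE 0.58). It was at 79.1, 87.7, 110.1 and 109.8 CPM with mimic and 99.8, 9.10, 83.4 and 102.7 CPM with inhibitor, so inhibitor 2 set that value. *Cd164* was picked out after its values were seen.

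Trafficking, protein turnover and folding took 10 targets, of which 5 were listed in each direction. *Plekhf1* encodes phafin1, an endosomal and lysosomal protein. It was at 15.1, 22.2, 16.9 and 14 CPM in the mimic and at 26.4, 27.8, 27.8 and 22.9 CPM in the inhibitor libraries, without overlap. The log2 fold change was -0.61 (SE 0.19), with an adjusted p of 0.25 by edgeR and 0.333 by DESeq2. Its diet groups were 22.6, 21.2 and 19.5 CPM in CS, 37.7, 43.2 and 35.8 CPM in HFS, and 29.6, 41.9, 38.7 and 37.2 CPM in HFR. HFS and HFR both lay above CS without overlap, and unlike most of the list *Plekhf1* had CS 2 among CS and HFS 2 among HFS, the latter being 1.02 above the former on the log2 scale. Those 2 libraries were not in the table that chose the list, but they entered a fold change by which *Plekhf1* was picked here for single values. *Plekhf1* was among the 19 of 80 targets for which HFS 2 was in the listed direction from CS 2.

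*Copz2* encodes a subunit of the COPI coat of Golgi vesicles. It was at 7.65, 16.4 and 2.36 CPM in CS, 18.2, 16.0 and 17.4 CPM in HFS, and 6.96, 10.1, 8.08 and 12.1 CPM in HFR. CS 2 was at the HFS level, and all runners were below all HFS libraries. Between mimic and inhibitor *Copz2* was at 5.61, 7.54, 8.04 and 8.57 CPM against 6.44, 10.5, 3.03 and 6.95 CPM, a log2 fold change of 0.10 (SE 0.35). The sorting gene *Vps41* was at 0.54 (SE 0.28), while *Dap*, *Fbxo2*, *Rab6b*, *Tmx4* and *Usp15* lay between -0.10 and 0.12, and *Dnajb13* and *Ube2o* had too few counts.

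*Mbp* encodes myelin basic protein, the structural protein of compact myelin, and was the most abundant target. It was at 7474.3, 12014.7 and 9311.7 CPM in CS, 17667.1, 16326.1 and 11730.1 CPM in HFS, and 14198.4, 10171.8, 11973.5 and 13993.4 CPM in HFR. HFS 3 lay just under CS 2, and the runners filled the range between the other CS and HFS libraries. Mimic 1 to 4 were at 5652.0, 8420.2, 10191.2 and 5254.4 CPM and inhibitor 1 to 4 at 9580.0, 6331.6, 8273.4 and 6488.9 CPM, a log2 fold change of -0.06 (SE 0.22). *Mbp*, like *Klk6*, is one of the 6 oligodendrocyte markers, and it made up most of their sum.

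**Figure D3:**
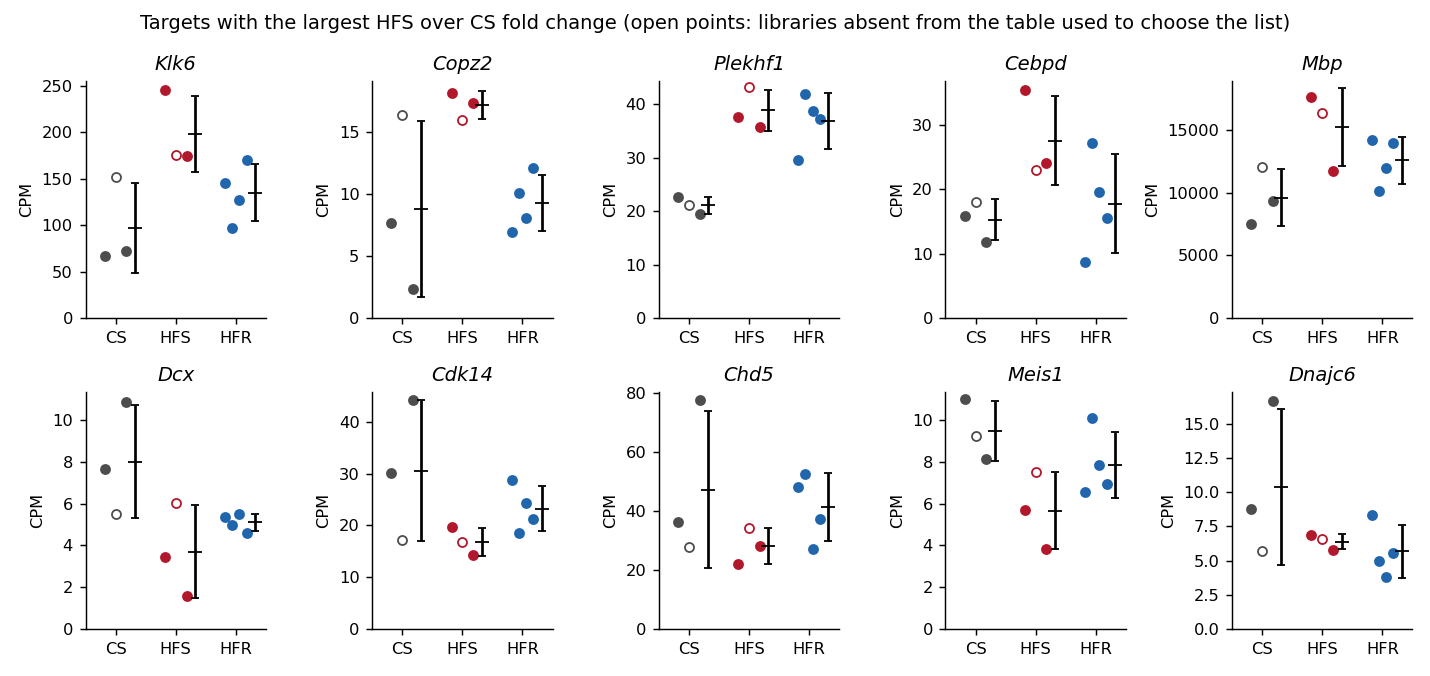
CPM (y axis) in the CS, HFS and HFR libraries for the 5 targets listed as higher (top) and the 5 listed as lower (bottom) with the largest fold change of HFS over CS at a mean of at least 5 CPM, with 1 point per library and the mean with its SD. The open points, CS 2 and HFS 2, are absent from the table that chose the list: CS 2 lies at the HFS level for *Copz2* (16.4 CPM) and *Cdk14* (17.1 CPM), but with CS for *Plekhf1* (21.2 CPM).

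Across the diet libraries, the list followed the study's direction by its choice, and the size depended on which libraries were used. Over all 10 libraries, HFS over CS had a median log2 fold change of 0.36 for the 44 targets listed as higher and -0.34 for the 35 listed as lower that passed the filter, beside 0.00 over 11892 genes. Over the 8 libraries of the study's table the medians were 0.70 and -0.70. They were 0.63 and -0.61 without CS 2, and 0.19 and -0.13 without CS 3. Non-overlapping HFS and CS groups were seen for 9 targets on the higher and 5 on the lower side of 79, or 11.4% and 6.33%. Of all genes 4.82% and 4.91% were so placed, and of the other genes of the diet list 11.6% and 3.76%.

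Library by library, CS 2 went with HFS. The median of the targets listed as higher, relative to each gene's mean over the libraries, was -0.29 in CS 1 and -0.48 in CS 3 but 0.28 in CS 2. In HFS it was 0.43, 0.07 and 0.29, with HFS 2 the lowest. For the targets listed as lower it was 0.21 in CS 1, 0.58 in CS 3 and -0.35 in CS 2, against -0.28, 0.14 and -0.17 in HFS. For the other genes of the diet list CS 2 also lay on the side of HFS, at 0.33 for genes listed as higher and -0.26 for genes listed as lower.

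**Figure D4:**
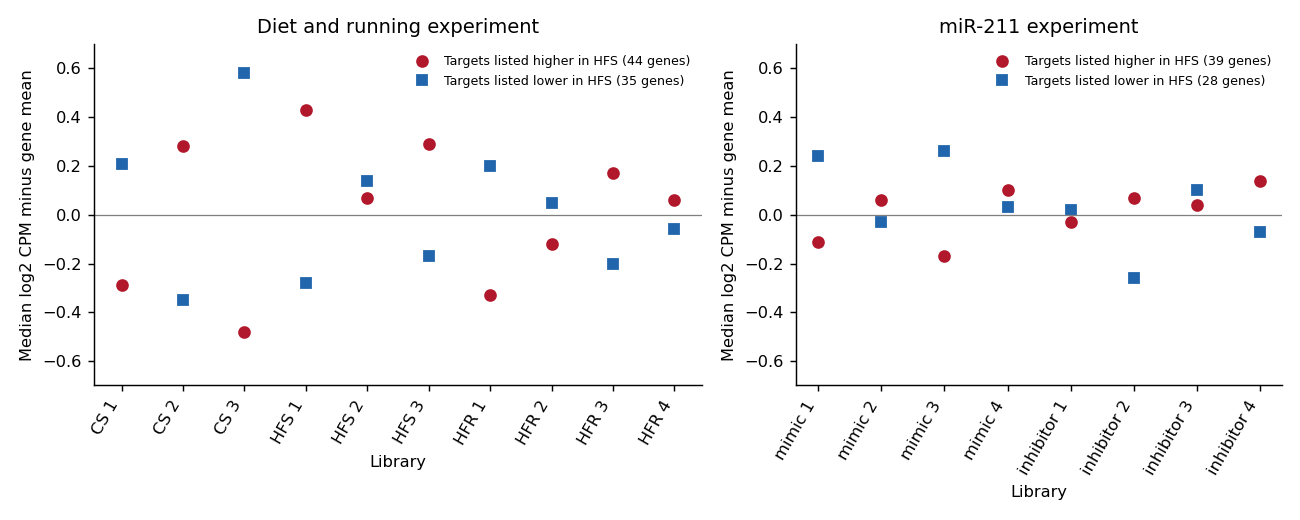
Median over targets of the log2 CPM minus each gene's mean over the libraries of the experiment (y axis) in every library (x axis), for targets listed as higher (circles) and as lower (squares) in HFS. In the diet experiment CS 2 sits at 0.28 and -0.35, on the side of HFS, and in the miR-211 experiment the medians stay between -0.26 and 0.26.

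CS 2 and HFS 2, taken alone, are the CS and HFS libraries that matched no column of the table on which the list was chosen. HFS 2 was in the listed direction from CS 2 for 19 of 80 targets, 10 of the 44 listed as higher and 9 of the 36 listed as lower. The median difference of HFS 2 from CS 2 was -0.27 on the log2 scale for the former and 0.28 for the latter, opposite to the list, and 0.00 over all genes. With 1 library each there is no replicate check of this difference. CS 2 also had the vascular, meningeal and neuronal marker sums given above, and 4963.4 CPM of 6 astrocyte and tanycyte markers against 2768.9 and 3194.5 CPM in the other CS libraries and 3839.5 CPM in HFS 2. The part of these in the targets' values was not tested.

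The HFR group lay between CS and HFS for 40 of 80 targets, beyond HFS for 18 and beyond CS for 22. A gene chosen for a difference between CS and HFS tends to lie there by the choice itself. Over the 8 libraries of the study's table these counts were 66, 10 and 4, and without CS 3 the first was 22. The median fold change of HFR over HFS was -0.30 for targets listed as higher and 0.09 for targets listed as lower, and that of HFR over CS was 0.10 and -0.22. Single libraries moved these values: HFR over HFS was -0.17 for targets listed as higher without HFS 1, and 0.03 without HFR 1 or 0.29 without HFS 2 for those listed as lower. HFR over CS turned to -0.07 for targets listed as higher without CS 3 and was 0.37 without CS 2, and for those listed as lower it was -0.02 and -0.44. Both comparisons share libraries with the one that chose the list.

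By role, HFR over HFS was below 0 for all 8 extracellular matrix and secreted genes, at a median of -0.54, for all 5 actin-linked genes, at -0.18, and for all 7 surface proteins, at -0.30. All of these were listed as higher in HFS, as were the 41 of 44 targets (93.2%) and the 195 of 218 other genes of the diet list (89.4%, median -0.36) that were below 0 in the same comparison. HFR over HFS was above 0 for 9 of 12 genes of neuronal growth, adhesion and cytoskeleton, all listed as lower, at a median of 0.21. The same held for 99 of the 128 other genes of the diet list that were listed as lower, at a median of 0.16. HFR lay above HFS without overlap for *Cox5a*, *Gabbr2*, *Lmtk2*, *Map1b* and *Rab6b* (all genes 3.18%), and below for *Cd82*, *Copz2*, *Cox4i2*, *Fbxo2*, *Klk6* and *Mxra8* (all genes 3.67%). These were 6.33% and 7.59% of the targets, beside 5.2% and 11.8% of the other genes of the diet list. From CS the HFR group was separated upwards for 2 targets, *Plekhf1* among them (all genes 2.58%, other genes of the diet list 3.47%). It was separated downwards for *Cntn1* (all genes 2.88%, other genes of the diet list 0.289%). The neuronal markers summed to 2410.5 to 2818.3 CPM in HFR and 1911.8 to 2406.6 CPM in HFS, and the vascular and meningeal ones to 209.9 to 513.0 CPM and 433.2 to 567.2 CPM, and their part in these values was not tested.

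Set side by side, the size of a target's fold change in the diet libraries did not always carry over to the miR-211 libraries. *Cebpd*, *Klk6* and *Plekhf1* were at 0.85, 1.03 and 0.88 for HFS over CS and at -1.73, -0.51 and -0.61 for mimic over inhibitor. *Msn* and *Fbln1* were at 0.59 and 0.52 for HFS over CS and at -0.86 and -0.74 for mimic over inhibitor. *Rela* was at 0.11 and -0.64, and *Metrn* at 0.16 and 0.75. *Copz2* and *Mbp*, at 0.95 and 0.67 for HFS over CS, were at 0.10 and -0.06 for mimic over inhibitor. *Cdk14* was at -0.85 and 0.34 and *Ina* at -0.17 and 0.39.

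**Figure D5:**
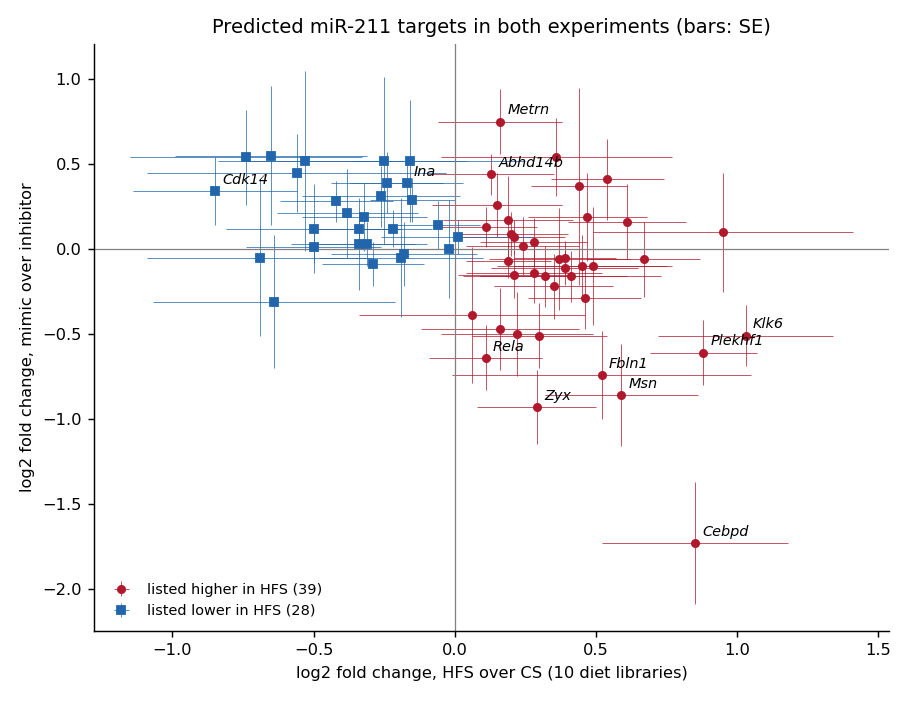
Log2 fold change of HFS over CS in the 10 diet libraries (x axis) against that of mimic over inhibitor (y axis) for the 67 targets fitted in both, with the SE as bars, as circles for targets listed as higher (39) and squares for those listed as lower (28) in HFS. The list was chosen on this diet contrast, so the x values split the symbols left and right by that choice, except *Vsnl1*, listed as lower, at 0.01. Along the y axis 24 of the 39 circles lie below 0 and 22 of the 28 squares above it, with *Cebpd* lowest at -1.73.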

How the data were processed

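RNA of the ARC from 18 rats in 5 groups was analysed, and the groups were taken from the sample labels. The authors made libraries with a bulk version of MARS-seq, trimmed reads, aligned them to Rnor6 with STAR 2.7.9a, used SAMtools to take out duplicates and HTSeq 0.13.5 (union mode, no strand) to count reads on Ensembl genes, so overlapping and antisense genes cannot be told apart. The annotation release is not given in the sources used here. The deposited values are raw counts of 32883 genes. A correction by unique molecular identifiers is named for the deposited miR-211 counts only. Rows that name no gene, present in the diet files only, were left out of totals and tests; they held 22.4% to 26.3% (no feature), 17.2% to 20.6% (not unique) and 1.8% to 2.1% (ambiguous) of all listed reads.

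Genes passed filterByExpr and were tested with edgeR 4.0.16 in R 4.3.3 (TMM, robust quasi-likelihood, two-sided), with Benjamini-Hochberg adjustment over all genes of a fit, namely 9625 genes in 8 miR-211 libraries and 11892 genes in 10 diet libraries. The common biological coefficient of variation was 0.205 and 0.234. Alternatives used DESeq2 1.42.0, RLE and upper-quartile scaling, other filters, thresholds of 0.1 and 0.01, a replicate block, and each library left out in turn. The SE given with an edgeR fold change is its absolute log2 value divided by the square root of the test's F statistic, not an error estimated by the model itself. Log2 levels used a prior count of 2. Of the targets, 79 passed the filter in the diet and 67 in the miR-211 fit.

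Symbols came from the study's tables. Their values were used only to match libraries to columns (an interquartile range of the log2 ratio under 0.01) and to give the listed directions. The listed direction of a target is the sign of the study's own diet fold change. The cut that chose the list was made on the authors' own values and is not repeated here. The targets, roles and marker lists were chosen with earlier results of these data known. Genes given with values in every library were the 5 targets with the smallest p on each side between mimic and inhibitor, the 5 with the largest diet fold change in each listed direction at a mean of at least 5 CPM, and related pairs. *Ago3*, *Rela* and *Mbp* were added for their roles. Some miR-211 library values of *Cd164*, *Msn* and *Ahcyl1* are given outside this rule. Between mimic and inhibitor, deviations of same-numbered libraries correlated at 0.05 to 0.21, and those of the other 12 pairs at -0.29 to 0.19. The labels do not say what the numbers stand for, and no pairing was assumed in the main fit. miRNA, site and protein sequences were not used here. Single values of 2 targets are not reported here, and both stay in the counts and medians.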

Additional observations from a re-analysis of the deposited data

Results flagged for a closer look

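*Elavl2*, which encodes the neuronal RNA-binding protein HuB, had 1 library far from the others of its group: mimic 2 was at 10.8 CPM, while the other mimic libraries lay at 21.8 to 23.3 CPM. Chance flags about 1 in 20 groups, and this was 1 flag in 78 groups of 4 libraries looked at, over 26 targets.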

How the results depend on the processing

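With 3 or 4 libraries per group and as few as 1275263 counts in a library, 13 of the 80 targets could not be fitted between mimic and inhibitor. The count of targets called lower was 0 by edgeR, 2 with DESeq2 (*Cebpd*, *Zyx*), 1 with the replicate block (*Cebpd*, adjusted p = 0.00851), 1 without a filter on low counts (*Zyx*) and 0 to 1 with single libraries left out (*Zyx* without inhibitor 1). The count called higher was 1 with DESeq2 and 1 without a filter (*Metrn*), and 0 with any library left out. The cause of these differences was not tested. What same-numbered libraries share beyond the number is not given by the labels, and the block moved the calls over all genes from 43 to 52. Without inhibitor 1 there were 111 calls over all genes, and without mimic 1 or mimic 3 there were 0.

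The median over all targets between mimic and inhibitor stayed between 0.00 and 0.09. For the genes of the diet list outside the targets, the mean over those listed as higher was -0.27 where the median was -0.13. For HFS over CS the median over all targets was 0.15, 0.49 over the 8 libraries of the study's table, 0.37 without CS 2, and 0.01 to 0.37 with single libraries left out. For HFR over HFS it was -0.14, and -0.16 to -0.09 with single libraries left out (-0.09 without HFS 1). HFR lay between CS and HFS for 40 targets, for 66 over the 8 libraries of the study's table, and for 22 (without CS 3) to 59 (without CS 2) with single libraries left out.

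Fold changes of mimic over inhibitor of named targets that changed sign with a library left out were those of *Copz2* (-0.12 to 0.36), *Mbp* (-0.25 to 0.08), *Dnajc6* (-0.40 to 0.24), *Kcnc2* (-0.11 to 0.77) and *Cox5a* (-0.03 to 0.06), and none of these was called in any fit.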
